A study of Mus musculus with 18 samples.

Results

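The genes of fatty acid oxidation and the known targets of PPARα were followed in the mouse kidney before and after ischaemia-reperfusion (I/R) injury. The set was defined by gene name, all 45 names were found among the 29307 genes of the table, and all 45 were among the 16342 genes that were tested. It comprised 4 genes of the carnitine shuttle and 15 of mitochondrial β-oxidation and its electron transfer (together the 19 mitochondrial genes), 10 peroxisomal genes, 4 genes whose products work in both or in another organelle, 3 genes of uptake and activation of long-chain fatty acids, 4 medium-chain acyl-CoA synthetase genes, 2 genes of ω-oxidation, 1 gene of ketone body metabolism and 2 transcriptional regulators. Control mice carried floxed alleles of IKKβ (IKKβ flox) and are labelled WT in the deposited records. Both strains received doxycycline from 6 weeks of age, followed by a wash out. In IKKβΔTub mice the same alleles were combined with Pax8-rtTA and LC1-Cre, so that doxycycline deleted IKKβ along the tubule. Interstitial, vascular and immune cells kept the gene. Whole-kidney RNA was taken at baseline, or 2 days or 14 days after the left renal pedicle had been clamped for 30 min, with 3 libraries in each of the 6 groups. By the labels RNA of 2 mice was combined in every library, but the deposited key lists 10 such pools and 8 single mice.

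In the proximal tubule, long-chain fatty acids are taken up, activated to acyl-CoA and carried by the carnitine shuttle into mitochondria, where β-oxidation removes acetyl-CoA units and passes electrons to the respiratory chain. Peroxisomes shorten very long, branched and dicarboxylic acids, and the CYP4A enzymes of the endoplasmic reticulum supply dicarboxylic acids by ω-oxidation. PPARα, a nuclear receptor that binds DNA together with RXR, switches on many genes of all 3 routes in liver and kidney, and PGC-1α (Ppargc1a) is its coactivator. The tubule depends on this fuel and is known to lose it after injury.

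mRNA levels are given as deposited, as reads of a gene over the 90th percentile of gene reads in the same library. Baseline libraries held 26285452 to 66317182 reads and libraries after I/R injury 12306138 to 25933188. The baseline libraries also came from another sequencing block and another series of animals, so that depth, block and animal series cannot be told apart from injury in any comparison with baseline. Y-linked expression was absent in 3, 2 and 1 control libraries and in 1, 0 and 3 IKKβΔTub libraries at baseline, 2 days and 14 days. At 2 days the genotype of replicates 1 and 2 labelled control was in doubt. Ikbkb, the targeted gene, was at 0.829 and 0.855 there, at 1.29 in replicate 3 and at 0.846 to 0.986 in the IKKβΔTub libraries of that day. Vmn1r32 was at 0.0156 and 0.0234 in replicates 1 and 2. It was at 0.016 to 0.0177 in the IKKβΔTub libraries of that day and at 0 to 0.00177 in all other control libraries. Control replicate 3 is listed as a single mouse and came from another series of animals than the other libraries of that day. A pair of libraries stood apart in the genes described here. Control baseline replicate 3 lay below both other libraries of its group in 38 of the 45 members (84.4%) and in 29.6% of all genes tested. IKKβΔTub day 14 replicate 2 lay above both others of its group in 41 members (91.1%) and in 26.8% of all genes.

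After I/R injury most members fell. In control mice 26 members were lower and 2 higher at 2 days than at baseline, where 10.9% of all genes tested were called lower and 25.3% higher, by limma with an adjusted p under 0.05. The median log2 fold change was -0.85 over the members and 0.16 over all genes. At 14 days 31 members were lower and 1 was higher, against 16.9% and 32.5% of all genes, and the medians were -1.19 and 0.23. In IKKβΔTub mice 37 members were lower and 3 higher at 2 days (14.5% and 35.2% of all genes), with medians of -1.27 over the members and 0.25 over all genes. At 14 days 32 were lower and 2 higher (10.9% and 28.6% of all genes), and the medians were -1.10 and 0.25. The comparisons of 2 days and of 14 days share their baseline libraries. All comparisons with baseline also depend on the scaling, since the deposited values place the median gene above 0. After rescaling by median ratios that median lay between -0.03 and 0.04, and of the genes called 54.1%, 51.8%, 49.7% and 52.2% were higher in the 4 comparisons, in place of 69.8%, 65.8%, 70.9% and 72.4%, while the medians of the members were -1.04, -1.40, -1.59 and -1.35. In whole-kidney RNA, fewer cells of a type and less RNA per cell cannot be told apart. The summed level of 24 proximal tubule markers was 400.4 to 494 in control libraries at baseline, 132 to 340 at 2 days and 74.5 to 159 at 14 days, and in IKKβΔTub libraries 350 to 549, 202 to 328 and 93.7 to 370. Of these markers 13, 22, 11 and 18 were called lower in the same order of comparisons (control 2 and 14 days, IKKβΔTub 2 and 14 days). The part of a loss of proximal tubule RNA in the fall of the members was not tested. Without the 2 control day 2 libraries of doubtful genotype, 16 in place of 28 members were called in control mice at 2 days, with a median of -0.94. Among libraries without Y-linked expression the median of the members at 14 days was -1.45 in control mice and -0.98 in IKKβΔTub mice. This left a single day 14 library in the former and a single baseline library in the latter.

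**Figure D1:**
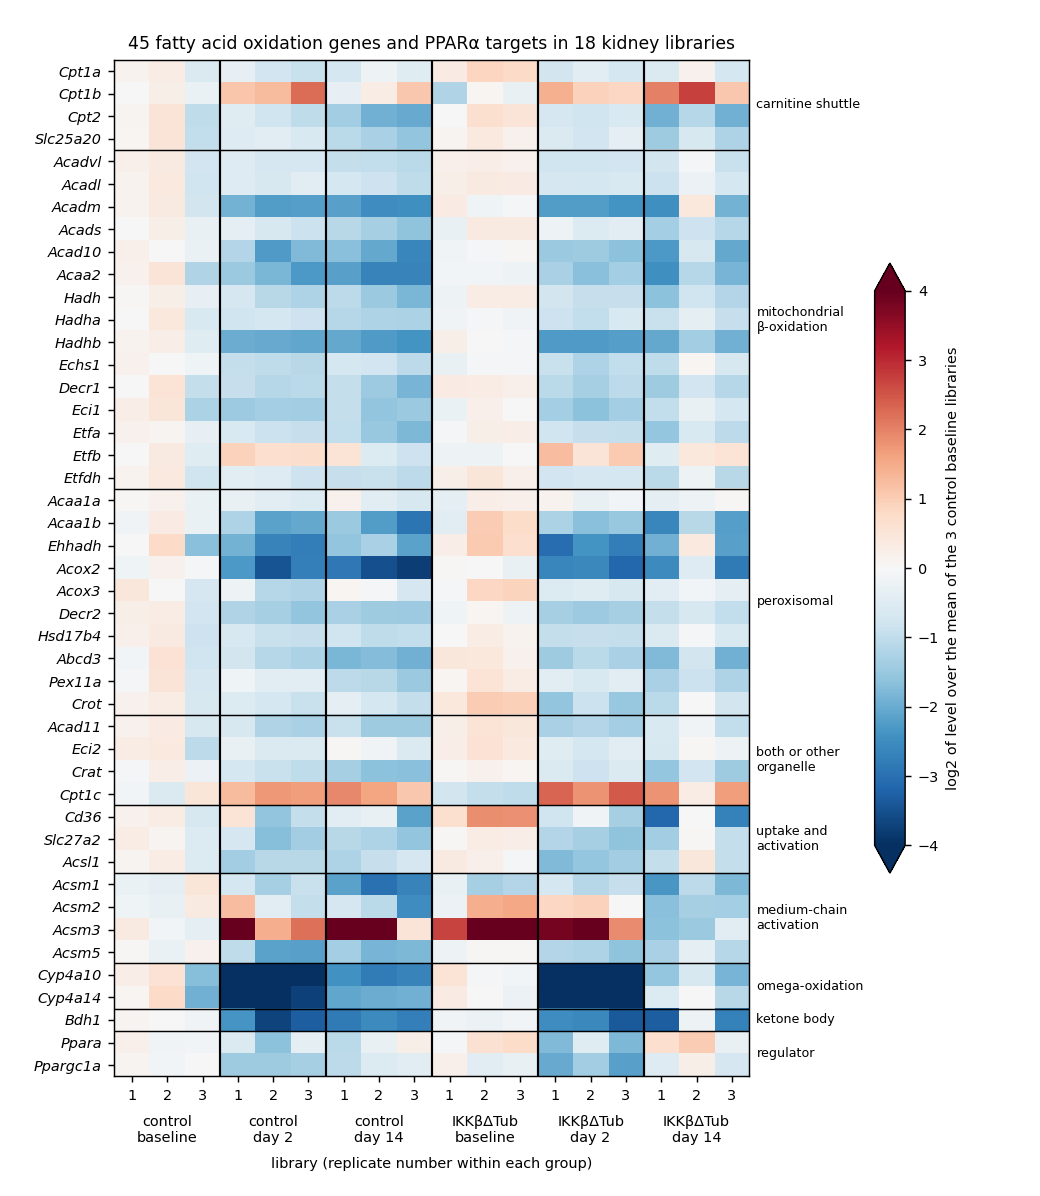
Level of each of the 45 members (rows, grouped by role) in each of the 18 libraries (columns), as the log2 of the level over the mean of the 3 control baseline libraries; blue is lower, red is higher, and colours are cut at -4 and 4. Most rows turn blue after injury, Cyp4a10 and Cyp4a14 are darkest at 2 days, and IKKβΔTub day 14 replicate 2 is paler than the other day 14 libraries.

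Most mitochondrial and most peroxisomal genes fell in the comparisons with baseline, with a lower median for the peroxisomal genes in each. At 2 days in control mice 11 of 19 mitochondrial genes were lower and 1 higher, with a median log2 fold change of -0.72, and 6 of 10 peroxisomal genes were lower, with a median of -0.86. In IKKβΔTub mice 16 mitochondrial genes were lower and 2 higher at 2 days (median -1.02), and 9 peroxisomal genes were lower (median -1.44). At 14 days the counts were 16 of 19 and 6 of 10 lower in control mice, with medians of -1.19 and -1.22. They were 15 of 19 lower with 1 higher and 8 of 10 lower in IKKβΔTub mice, with medians of -1.2 and -1.41. The peroxisomal median minus the mitochondrial one was -0.14 (2 days) and -0.04 (14 days) in control mice and -0.43 and -0.22 in IKKβΔTub mice. Without single libraries it ran from -0.50 to -0.36 in IKKβΔTub mice at 2 days and from -0.05 to 0.07 in control mice at 14 days. Peroxisomal log2 fold changes in control mice at 2 days ran from -2.79 to -0.26 and mitochondrial ones from -2.04 to 0.85. Within single libraries, the median of the peroxisomal genes, relative to control baseline, minus that of the mitochondrial genes lay between -0.33 and 0.02 in control mice and between -0.53 and -0.0032 in IKKβΔTub mice at 2 days. At 14 days it lay between -0.15 and 0.31 and between -0.06 and 0.17, so that both groups overlapped with their own values at 2 days. Genes are not replicates, and no test was made of the difference between organelles.

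**Figure D2:**
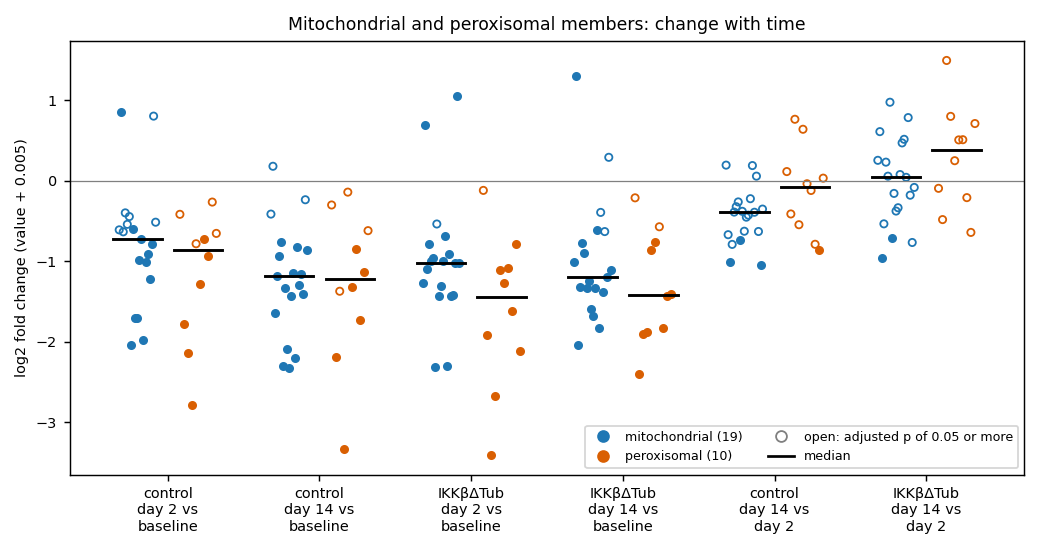
Log2 fold change (vertical axis) of each mitochondrial gene (blue, 19) and peroxisomal gene (orange, 10) in 6 comparisons; filled points had an adjusted p under 0.05, and black lines are medians. In the 4 comparisons with baseline most points lie below 0 and the lowest point is peroxisomal, while the comparisons of 14 days with 2 days lie around 0.

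The genes of ω-oxidation fell the most at 2 days. Cyp4a14 and Cyp4a10 encode fatty acid ω-hydroxylases and are classical targets of PPARα. They neighbour each other on chromosome 4 of GRCm38, Cyp4a14 (ENSMUSG00000028715) from 115486200 to 115496142 on the minus strand and Cyp4a10 (ENSMUSG00000066072) from 115518264 to 115533649 on the plus strand. As close relatives they may share reads, which makes the split between them uncertain. In control mice Cyp4a14 was at 73.2, 118 and 18.6 at baseline, at 0.41, 1.7 and 5.27 at 2 days and at 16.4, 17.6 and 18.4 at 14 days. In IKKβΔTub mice it was at 88.5, 70.7 and 59.5, then 0.144, 0.0983 and 1.66, then 47.8, 70.4 and 32.7. Every library at 2 days was below every baseline and every day 14 library. At 14 days IKKβΔTub replicate 2, at 70.4, lay within the range of its own baseline, while replicates 1 and 3 lay below it. The log2 fold change at 2 days was -5.13 (SE 0.96, adjusted p = 0.000759 from limma) in control mice and -7.93 (SE 0.96, adjusted p = 1.14e-05 from limma) in IKKβΔTub mice. Without the doubtful replicates 1 and 2 the control value was -3.36 and lost its call (adjusted p = 0.0674 from limma). At 14 days it was -1.64 (SE 0.96, adjusted p = 0.167 from limma) and -0.59 (SE 0.96, adjusted p = 0.653 from limma).

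Cyp4a10 followed the same course. Its levels were 52.5, 65.3 and 13.3 at baseline, 1.88, 1.56 and 2.31 at 2 days and 8.12, 6.27 and 6.82 at 14 days in control mice. They were 64.1, 42.2 and 40.8, 0.659, 0.844 and 1.72 and 15, 28.1 and 11.9 in IKKβΔTub mice. No library at 2 days overlapped with either other time. At 2 days the log2 fold change was -4.23 (SE 0.5, adjusted p = 1.37e-05 from limma) in control and -5.6 (SE 0.5, adjusted p = 5.64e-07 from limma) in IKKβΔTub mice. At 14 days it was -2.34 (SE 0.5, adjusted p = 0.00127 from limma) and -1.48 (SE 0.5, adjusted p = 0.0274 from limma). The day 14 call in IKKβΔTub mice was lost when IKKβΔTub baseline replicate 1 or 2 (-1.28 and -1.58) or day 14 replicate 1 or 3 (-1.39 and -1.22) was left out. Within a library Cyp4a14 stood at 1.38 to 1.8 times the level of Cyp4a10 in all 6 baseline libraries, at 0.117 to 2.28 times at 2 days and at 2.02 to 3.18 times at 14 days, a ratio in which the length of each gene cancels between libraries and which was chosen after its values were seen.

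The regulators moved less than these targets. Ppara (ENSMUSG00000022383, chromosome 15 from 85734983 to 85802819) encodes PPARα. Its levels were 0.774, 0.605 and 0.617 at baseline, 0.443, 0.213 and 0.509 at 2 days and 0.312, 0.541 and 0.783 at 14 days in control mice and 0.642, 1.02 and 1.12, 0.194, 0.474 and 0.19 and 1.06, 1.33 and 0.538 in IKKβΔTub mice. All 6 libraries at 2 days were below all 6 at baseline, whereas the day 14 libraries, from 0.312 to 1.33, overlapped with both. The log2 fold change at 2 days was -0.85 (SE 0.44, adjusted p = 0.144 from limma) in control mice and -1.77 (SE 0.44, adjusted p = 0.00379 from limma) in IKKβΔTub mice, and at 14 days it was -0.37 (SE 0.44) and 0.02 (SE 0.44), neither called. The last of these was between -0.25 and -0.09 without IKKβΔTub baseline replicate 1 or day 14 replicate 1 or 2, and between -0.23 and -0.16 after rescaling by median ratios or with edgeR or DESeq2. Ppargc1a, which encodes PGC-1α, was at 1.66, 1.41 and 1.51, then 0.572, 0.571 and 0.612, then 0.731, 1.04 and 1.15 in control mice. In IKKβΔTub mice it was at 1.77, 1.11 and 1.24, then 0.379, 0.58 and 0.337, then 1.07, 1.81 and 0.95. It fell in both at 2 days, by log2 fold changes of -1.37 (SE 0.26, adjusted p = 0.000872 from limma) in control and -1.67 (SE 0.26, adjusted p = 0.00011 from limma) in IKKβΔTub mice. At 14 days it was -0.67 (SE 0.26, adjusted p = 0.0443 from limma) in control mice, a call lost without any one of 5 of the 6 libraries (adjusted p between 0.0629 and 0.178 from limma, the highest without control day 14 replicate 1), and -0.13 (SE 0.26) in IKKβΔTub mice.

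**Figure D3:**
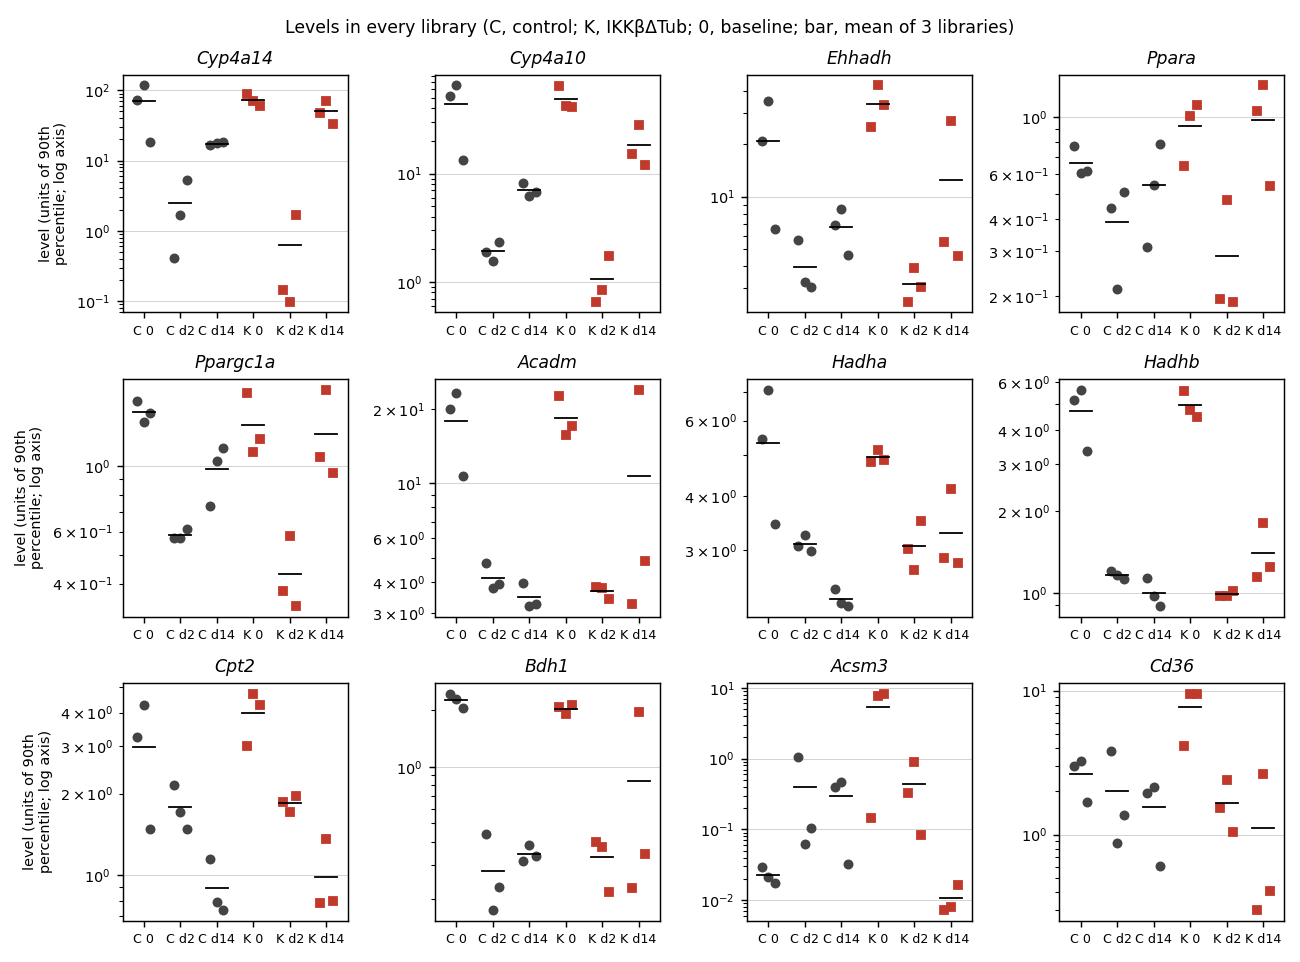
Level of 12 members in every library (log vertical axes, in units of the 90th percentile of the library) at baseline (0), 2 days (d2) and 14 days (d14); grey circles are control (C), red squares IKKβΔTub (K), and bars are means of 3 libraries. Cyp4a14, Cyp4a10, Ppara and Ppargc1a dip at 2 days and are higher at 14 days, Acadm and Bdh1 stay low except in IKKβΔTub day 14 replicate 2, Hadhb stays low in all libraries after injury, and Cpt2 is lowest at 14 days.

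Among the peroxisomal genes, Acox2, Ehhadh and Acaa1b were among those that fell the most, and Acaa1a was not called in any comparison with baseline. Ehhadh (ENSMUSG00000022853, chromosome 16 from 21761287 to 21787807) encodes the bifunctional enzyme of the peroxisomal pathway. Its levels were 20.7, 35 and 6.54 at baseline, 5.62, 3.24 and 3.05 at 2 days and 6.88, 8.54 and 4.66 at 14 days in control mice. In IKKβΔTub mice they were 25, 43.3 and 33.4, 2.52, 3.92 and 3.06 and 5.5, 27.2 and 4.56. The low baseline value is that of control replicate 3, which overlapped with the libraries at 14 days, and the high value at 14 days is that of IKKβΔTub replicate 2. At 2 days the log2 fold change was -2.14 (SE 0.61, adjusted p = 0.0133 from limma) in control mice and -3.41 (SE 0.61, adjusted p = 0.000358 from limma) in IKKβΔTub mice. The control call was lost without control baseline replicate 2 (-1.61) or control day 2 replicate 3 (-1.98). At 14 days the change was -1.37 (SE 0.61, adjusted p = 0.0749 from limma) in control mice, and it was called at -2.05 without control baseline replicate 3. In IKKβΔTub mice it was -1.91 (SE 0.61, adjusted p = 0.0228 from limma), a call lost without baseline replicate 2 (-1.71) or 3 (-1.90) or day 14 replicate 1 (-1.57) or 3 (-1.44) or with edgeR (-1.66).

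Acox2 encodes the oxidase for branched chains and bile acid intermediates. It was at 1.9, 2.44 and 2.1 at baseline, 0.439, 0.198 and 0.324 at 2 days and 0.299, 0.187 and 0.159 at 14 days in control mice, and at 2.23, 2.17 and 1.75, 0.35, 0.36 and 0.245 and 0.367, 1.49 and 0.303 in IKKβΔTub mice. Every library after injury was below every baseline library, with the day 14 replicate 2 of IKKβΔTub mice nearest to them. The log2 fold changes at 2 and 14 days were -2.79 and -3.33 in control and -2.68 and -1.88 in IKKβΔTub mice, all called (adjusted p from 4.21e-05 to 0.00505 from limma). Acaa1b and Acaa1a encode the 2 peroxisomal thiolases of the mouse, and as near-identical genes they may share reads. Acaa1b was at 5.05, 7.0 and 4.62, then 2.38, 1.26 and 1.34, then 1.97, 1.18 and 0.732 in control mice and at 4.16, 11.2 and 9.17, then 2.32, 1.73 and 1.95, then 0.918, 2.59 and 1.21 in IKKβΔTub mice. It fell in all 4 comparisons, with log2 fold changes of -1.78, -2.19, -1.92 and -2.4, whereas those of Acaa1a lay between -0.42 and -0.12 and none was called. The level of Acaa1b was 2.3 to 4.35 times that of Acaa1a in the baseline libraries and 0.531 to 1.39 times in the libraries after injury.

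Pex11a encodes a membrane protein that divides peroxisomes. Its levels were 1.06, 1.57 and 0.69 at baseline, 0.986, 0.831 and 0.81 at 2 days and 0.539, 0.511 and 0.395 at 14 days in control mice, and 1.16, 1.6 and 1.35, 0.815, 0.721 and 0.831 and 0.447, 0.604 and 0.473 in IKKβΔTub mice. In both strains the libraries at 14 days were the lowest and did not overlap with those at 2 days. The log2 fold change at 14 days was -1.13 (SE 0.24, adjusted p = 0.00131 from limma) in control and -1.42 (SE 0.24, adjusted p = 0.000589 from limma) in IKKβΔTub mice. Abcd3, a transporter of the peroxisomal membrane, was likewise lower at 14 days, by -1.72 and -1.83. Of 26 other genes of peroxisome biogenesis and peroxisomal enzymes, 11, 14, 11 and 8 were lower and 1, 2, 0 and 2 higher in the 4 comparisons with baseline, with medians between -0.44 and -0.29, where those of the 10 peroxisomal members lay between -1.44 and -0.86.

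In the carnitine shuttle Cpt2 fell, Cpt1a fell in IKKβΔTub mice, and Cpt1b rose from a low level, as did its relative Cpt1c, whose product is not mitochondrial. Cpt2 (ENSMUSG00000028607, chromosome 4 from 107903981 to 107923610) encodes the transferase of the inner mitochondrial membrane. It was at 3.24, 4.26 and 1.48 at baseline, 2.15, 1.71 and 1.48 at 2 days and 1.14, 0.792 and 0.74 at 14 days in control mice. In IKKβΔTub mice it was at 3.02, 4.7 and 4.27, 1.86, 1.71 and 1.96 and 0.786, 1.36 and 0.797. The day 14 libraries were the lowest in both strains, including replicate 2 of IKKβΔTub mice at 1.36. The log2 fold change was -0.63 (SE 0.33, adjusted p = 0.148 from limma) at 2 days and -1.64 (SE 0.33, adjusted p = 0.000886 from limma) at 14 days in control mice, and the former was called at -1.08 without control baseline replicate 3. In IKKβΔTub mice it was -1.09 (SE 0.33, adjusted p = 0.0127 from limma), a call lost without baseline replicate 2 (-0.96), and -2.04 (SE 0.33, adjusted p = 0.000455 from limma).

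Cpt1a encodes the rate-limiting transferase of the outer mitochondrial membrane in liver and kidney. Its levels were 9.48, 10.6 and 5.7 at baseline, 6.85, 5.02 and 4.67 at 2 days and 5.27, 7.49 and 6.12 at 14 days in control mice, and 10.7, 15.7 and 14.6, 5.19, 6.35 and 5.28 and 5.78, 9.66 and 5.31 in IKKβΔTub mice. The control groups overlapped at each time because of baseline replicate 3 at 5.70. The log2 fold changes in control mice were -0.61 and -0.41, with adjusted p = 0.0876 and 0.212 from limma, and both were called without that library (-0.88 and -0.68). In IKKβΔTub mice they were -1.27 (SE 0.27, adjusted p = 0.00122 from limma) and -1.01 (SE 0.27, adjusted p = 0.00833 from limma). The 2 baseline libraries with Y-linked expression, both IKKβΔTub, were at 14.6 and 15.7 and the 4 without it at 5.7 to 10.7.

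Cpt1b, the muscle form, was near the limit of detection, with 3 to 33 reads in a library. The level was 0.00151 to 0.00414 at baseline, 0.00622 to 0.0165 at 2 days and 0.00278 to 0.0234 at 14 days. The log2 fold change was called higher in control mice at 2 days (0.85) and in IKKβΔTub mice at 2 days (0.69) and 14 days (1.3). The first of these calls was lost without control baseline replicate 1 (0.85) or 3 (0.80) or day 2 replicate 3 (0.60), and that in IKKβΔTub mice at 2 days was lost without any one of its 6 libraries (0.58 to 0.79). Both were also lost after rescaling by median ratios (0.75 and 0.55). The summed level of 8 skeletal muscle markers was 0.0247 to 0.0368 at baseline and 0.0353 to 0.0833 at 2 days, 5 of the 8 were too low to be tested, and their part in these values was not tested. Cpt1c, the form of the endoplasmic reticulum, was at 0.0249, 0.0179 and 0.0374 at baseline, 0.064, 0.0885 and 0.086 at 2 days and 0.101, 0.0795 and 0.0559 at 14 days in control mice and at 0.0161, 0.0137 and 0.0133, 0.133, 0.0921 and 0.147 and 0.0931, 0.0329 and 0.0859 in IKKβΔTub mice. It rose in all 4 comparisons with baseline, by log2 fold changes of 1.45 (SE 0.33, adjusted p = 0.00316 from limma) and 1.41 (SE 0.33, adjusted p = 0.00246 from limma) in control and 2.71 (SE 0.33, adjusted p = 1.18e-05 from limma) and 1.85 (SE 0.33, adjusted p = 0.000813 from limma) in IKKβΔTub mice. IKKβΔTub day 14 replicate 2, at 0.0329, lay below control baseline replicate 3 at 0.0374, and all other libraries after injury were above all baseline libraries.

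Within mitochondrial β-oxidation, Acadm and Hadhb were among the genes that fell the furthest, and Etfb rose at 2 days in IKKβΔTub mice. Acadm (ENSMUSG00000062908, chromosome 3 from 153922357 to 153944632) encodes the medium-chain acyl-CoA dehydrogenase. Its levels were 19.9, 23.1 and 10.7 at baseline, 4.79, 3.8 and 3.92 at 2 days and 3.96, 3.21 and 3.26 at 14 days in control mice. In IKKβΔTub mice they were 22.7, 15.7 and 17, 3.83, 3.78 and 3.42 and 3.26, 24 and 4.85. All libraries after injury were below all at baseline with a single exception, IKKβΔTub day 14 replicate 2, which was above every baseline library. Acadm changed by -2.04 (SE 0.5, adjusted p = 0.00561 from limma) and -2.3 (SE 0.5, adjusted p = 0.00163 from limma) in control mice and -2.31 (SE 0.5, adjusted p = 0.00155 from limma) and -1.33 (SE 0.5, adjusted p = 0.0466 from limma) in IKKβΔTub mice. The last call was lost without any one of the 5 other libraries of that comparison (-1.44 to -0.76), with edgeR (-0.98) and with DESeq2 (-0.97), and the value was -2.2 without day 14 replicate 2.

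Hadha and Hadhb encode the α and β subunits of the mitochondrial trifunctional protein, which carries out the last 3 steps on long chains. They lie head to head on chromosome 5, Hadha (ENSMUSG00000025745) from 30118304 to 30155162 on the minus strand and Hadhb (ENSMUSG00000059447) from 30155248 to 30184593 on the plus strand, and are transcribed away from each other. The promoter windows of RefSeq on GRCm38.p6, 250 bases before to 50 after each start, overlap by 228 bases. This shared stretch, printed in capitals, lies upstream of both RefSeq starts. By the gene coordinates above, Hadha reaches to 30155162, so part of the capitals lies within that gene. The windows are chr5:30154931-30155230 on the minus strand for Hadha and chr5:30155003-30155302 on the plus strand for Hadhb, each 5′ to 3′ along its gene.
Hadha: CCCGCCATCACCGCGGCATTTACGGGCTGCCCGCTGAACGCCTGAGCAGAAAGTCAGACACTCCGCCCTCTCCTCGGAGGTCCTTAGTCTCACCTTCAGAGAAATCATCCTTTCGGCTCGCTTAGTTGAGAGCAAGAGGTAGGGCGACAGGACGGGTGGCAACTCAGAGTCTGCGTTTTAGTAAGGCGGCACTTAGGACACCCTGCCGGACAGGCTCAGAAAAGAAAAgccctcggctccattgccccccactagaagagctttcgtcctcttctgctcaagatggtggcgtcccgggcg
Hadhb: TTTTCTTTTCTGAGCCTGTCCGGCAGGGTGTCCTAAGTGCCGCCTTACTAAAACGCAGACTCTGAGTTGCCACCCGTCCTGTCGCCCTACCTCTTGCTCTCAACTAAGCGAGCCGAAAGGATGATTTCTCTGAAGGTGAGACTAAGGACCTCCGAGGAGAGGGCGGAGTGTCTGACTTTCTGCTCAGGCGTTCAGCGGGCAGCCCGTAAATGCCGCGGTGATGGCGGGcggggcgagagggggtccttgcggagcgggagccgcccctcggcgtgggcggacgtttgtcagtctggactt
Their mRNA levels nevertheless parted. Hadha was at 5.44, 7.08 and 3.46 at baseline, 3.07, 3.26 and 2.99 at 2 days and 2.44, 2.27 and 2.23 at 14 days in control mice, and at 4.82, 5.12 and 4.86, 3.02, 2.7 and 3.5 and 2.87, 4.17 and 2.81 in IKKβΔTub mice. Hadhb was at 5.16, 5.65 and 3.35, 1.2, 1.16 and 1.13 and 1.14, 0.977 and 0.896 in control mice, and at 5.59, 4.73 and 4.46, 0.974, 0.973 and 1.02 and 1.15, 1.81 and 1.24 in IKKβΔTub mice. For Hadhb every library after injury was below every baseline library, whereas for Hadha control baseline replicate 3 was within the range of the libraries at 2 days. Hadhb changed by -1.98 (SE 0.2, adjusted p = 2.93e-06 from limma) and -2.2 (SE 0.2, adjusted p = 3.05e-06 from limma) in control and -2.31 (SE 0.2, adjusted p = 4.48e-07 from limma) and -1.83 (SE 0.2, adjusted p = 3.85e-05 from limma) in IKKβΔTub mice. For Hadha it was -0.72 (SE 0.22, adjusted p = 0.0174 from limma) and -1.14 (SE 0.22, adjusted p = 0.000546 from limma) in control and -0.69 (SE 0.22, adjusted p = 0.0155 from limma) and -0.61 (SE 0.22, adjusted p = 0.0356 from limma) in IKKβΔTub mice. Without single libraries the Hadha calls at 2 days in control mice (without baseline replicate 1, -0.67, or 2, -0.48, or day 2 replicate 3, -0.69), at 2 days in IKKβΔTub mice (without day 2 replicate 2, -0.60) and at 14 days in IKKβΔTub mice (without any library but day 14 replicate 2, -0.63 to -0.51) were lost. Within a library the level of Hadhb over that of Hadha was 0.797 to 1.16 in all 6 baseline libraries and 0.291 to 0.466 in all 12 libraries after injury, IKKβΔTub day 14 replicate 2 included at 0.435. The ratio was chosen after its values were seen and, like every comparison with baseline, cannot be told apart from the sample block.

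Etfa and Etfb, the subunits of the electron transfer flavoprotein, parted at 2 days. Etfb was at 0.614, 0.797 and 0.439 at baseline, 1.17, 0.987 and 1.0 at 2 days and 0.898, 0.422 and 0.346 at 14 days in control mice, and at 0.539, 0.539 and 0.61, 1.45, 0.887 and 1.26 and 0.445, 0.821 and 0.895 in IKKβΔTub mice. All 6 libraries at 2 days were above all 6 at baseline. Its log2 fold change at 2 days was 0.81 (SE 0.33, adjusted p = 0.0704 from limma) in control and 1.06 (SE 0.33, adjusted p = 0.0157 from limma) in IKKβΔTub mice. The former was not called, and the latter call was lost without IKKβΔTub day 2 replicate 1 (0.91) or 3 (1.01), after rescaling by median ratios (0.74) and with edgeR (0.76). Etfa fell by log2 fold changes of -0.78 and -1.02, and the control call was lost without baseline replicate 1 (-0.69) or 2 (-0.71) or day 2 replicate 2 (-0.75) or 3 (-0.73). The level of Etfb over that of Etfa was 0.0862 to 0.137 at baseline and 0.223 to 0.467 after injury, a ratio also chosen after its values were seen. Over all 15 genes of mitochondrial β-oxidation only Etfb had a positive log2 fold change in control or IKKβΔTub mice at 2 days.

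Slc27a2 fell in all 4 comparisons with baseline, Acsl1 in 3 and Cd36 in those of IKKβΔTub mice. Slc27a2 encodes the fatty acid transporter and very-long-chain acyl-CoA synthetase of the proximal tubule. Its levels were 64.1, 56.4 and 35.9 at baseline, 32.7, 15.9 and 20.1 at 2 days and 24.3, 22.2 and 17.5 at 14 days in control mice, and 53.4, 63.6 and 62.8, 22.9, 20.9 and 17.1 and 19.7, 53.6 and 26.8 in IKKβΔTub mice. Every library after injury was below every baseline library except IKKβΔTub day 14 replicate 2 at 53.6. The log2 fold changes were -1.21 (SE 0.33, adjusted p = 0.0103 from limma) and -1.26 (SE 0.33, adjusted p = 0.00552 from limma) in control mice and -1.57 (SE 0.33, adjusted p = 0.00125 from limma) and -0.97 (SE 0.33, adjusted p = 0.0304 from limma) in IKKβΔTub mice. The first call was lost without control baseline replicate 1 (-1.04) or day 2 replicate 2 (-0.98), and the last without IKKβΔTub baseline replicate 2 (-0.92) or 3 (-0.93) or day 14 replicate 1 (-0.66) or 3 (-0.88). Acsl1, the main long-chain acyl-CoA synthetase, was lower at 2 days, by -1.15 (SE 0.32, adjusted p = 0.0104 from limma) in control mice, a call lost without control baseline replicate 2 (-0.98), and -1.74 (SE 0.32, adjusted p = 0.000383 from limma) in IKKβΔTub mice. At 14 days it was -0.9 in control mice, called but lost without baseline replicate 1 (-0.83) or 2 (-0.72) or day 14 replicate 1 (-0.76) or 2 (-0.91). In IKKβΔTub mice at 14 days it was -0.65 and not called, and was called at -1.12 without day 14 replicate 2.

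Cd36, the membrane receptor for fatty acids, is made by several cell types. It was at 2.99, 3.25 and 1.68 at baseline, 3.81, 0.88 and 1.37 at 2 days and 1.93, 2.14 and 0.602 at 14 days in control mice, and at 4.11, 9.51 and 9.45, 1.53, 2.39 and 1.04 and 0.3, 2.65 and 0.408 in IKKβΔTub mice. In each group that mixed libraries with and without Y-linked expression, those with it were the higher ones. At baseline the 2 libraries with it were at 9.45 and 9.51 and the 4 without it at 1.68 to 4.11. The fall in IKKβΔTub mice, -2.2 (SE 0.74, adjusted p = 0.0222 from limma) at 2 days and -3.37 (SE 0.74, adjusted p = 0.00285 from limma) at 14 days, thus set a baseline with 2 such libraries against a day 14 group with none. The call at 2 days was lost without baseline replicate 2 (-1.99) or 3 (-2.0) or day 2 replicate 1 (-2.18) or 3 (-1.90), and DESeq2 gave no adjusted p for Cd36 in either comparison. Summed adipocyte markers (15 genes) were 5.65 to 12.7 in IKKβΔTub libraries at baseline, 3.16 to 12 at 2 days and 6.5 to 10.0 at 14 days, and their part in the level of Cd36 was not tested.

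The 4 medium-chain acyl-CoA synthetase genes did not move together. Acsm5 fell at 2 and 14 days, by -1.76 and -1.66 in control mice and -1.3 and -0.89 in IKKβΔTub mice, from 1.65, 1.33 and 1.8 and 1.39, 1.65 and 1.64 at baseline to 0.622, 0.434 and 0.455 and 0.653, 1.25 and 0.716 at 14 days. The last of its calls was lost without baseline replicate 2 (-0.85) or 3 (-0.85) or day 14 replicate 1 (-0.72) or 3 (-0.78). Acsm1 was at 2.48, 2.29 and 4.24 at baseline, 1.86, 1.2 and 1.62 at 2 days and 0.682, 0.378 and 0.466 at 14 days in control mice and at 2.44, 1.19 and 1.34, 1.86, 1.36 and 1.57 and 0.598, 1.45 and 0.868 in IKKβΔTub mice. It was called only in control mice at 14 days among the 4 comparisons with baseline (-2.54, SE 0.35, adjusted p = 4.58e-05 from limma).

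Acsm2 was higher in the libraries with Y-linked expression at every time, and Acsm3 at baseline and at 14 days. Acsm3 (ENSMUSG00000030935, chromosome 7 from 119760923 to 119787513) was at 0.0291, 0.021 and 0.0177 at baseline, 1.05, 0.0613 and 0.103 at 2 days and 0.401, 0.462 and 0.0322 at 14 days in control mice. In IKKβΔTub mice it was at 0.147, 7.73 and 8.23, 0.324, 0.887 and 0.0835 and 0.00729, 0.00805 and 0.0166. At baseline the 2 libraries with Y-linked expression were at 7.73 and 8.23 and the 4 without it at 0.0177 to 0.147. At 14 days the 2 with it were at 0.401 and 0.462 and the 4 without it at 0.00729 to 0.0322. At 2 days the libraries overlapped, with 0.0835 to 1.05 in the 4 with it and 0.0613 and 0.103 in the 2 without it. The overlap came from IKKβΔTub replicate 3, at 0.0835, which had the lowest Y-linked sum of the 4 (0.544). It also held Xist at 1.53. The others with Y-linked expression at 2 days held Xist at 0.0104 or less, and the 2 without it at 5.6 and 7.44. The log2 fold change in IKKβΔTub mice at 14 days was -7.14 (SE 1.41, adjusted p = 0.00156 from limma). With Y-linked expression as a covariate it was -4.14, and among libraries without Y-linked expression -3.32, with 1 baseline library against 3. Acsm2 was at 17.2, 15.7 and 24.8, 45.6, 14.4 and 9.97 and 12.1, 9.1 and 3.47 in control mice and at 16.3, 53.1 and 55.7, 34.2, 36.3 and 19.2 and 6.05, 7.72 and 7.5 in IKKβΔTub mice. Its baseline libraries with Y-linked expression were at 53.1 and 55.7 and those without it at 15.7 to 24.8. At 2 days those with it were at 19.2 to 45.6 and those without it at 9.97 and 14.4. The fall of Acsm2 in IKKβΔTub mice at 14 days was -2.37 (SE 0.57, adjusted p = 0.005 from limma). The makeup by sex, read from Y-linked expression, cannot be told apart from time in IKKβΔTub mice, for these genes or for the other members. At baseline the libraries with Y-linked expression were also the higher ones for Cpt1a, Acaa1b (9.17 and 11.2 against 4.16 to 7.0) and Crot (7.28 and 7.55 against 2.39 to 4.94). For Acsm1 they were the lower ones (1.19 and 1.34 against 2.29 to 4.24). At 14 days the libraries with and without it overlapped for each of these.

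Bdh1, a mitochondrial dehydrogenase of ketone bodies, was among the members that fell the most. It was at 2.44, 2.28 and 2.05 at baseline, 0.441, 0.174 and 0.23 at 2 days and 0.315, 0.384 and 0.336 at 14 days in control mice, and at 2.07, 1.91 and 2.11, 0.401, 0.376 and 0.218 and 0.228, 1.95 and 0.346 in IKKβΔTub mice. Apart from IKKβΔTub day 14 replicate 2, at 1.95, every library after injury was at 0.441 or less. Bdh1 changed by -3.09 (SE 0.55, adjusted p = 0.000539 from limma) and -2.69 (SE 0.55, adjusted p = 0.000983 from limma) in control mice and -2.64 (SE 0.55, adjusted p = 0.0011 from limma) and -1.91 (SE 0.55, adjusted p = 0.0133 from limma) in IKKβΔTub mice, the last lost without day 14 replicate 1 (-1.30) or 3 (-1.59) or with edgeR (-1.47).

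The change from 2 days to 14 days was measured within 1 sample block, but the libraries of these times came from different series of animals, which cannot be told apart from time. In IKKβΔTub mice Y-linked expression was absent in 0 libraries at 2 days and in 3 at 14 days, so that sex cannot be told apart from time either. With Y-linked expression as a covariate 7 members were called higher and 0 lower in these mice, with 3487 of all genes called. The change set the Cyp4a genes and Ppargc1a apart from most other members. In control mice 3 members were higher and 6 lower at 14 days than at 2 days (16.6% and 17.7% of all genes tested), and the median was -0.26 over the members and 0.02 over all genes. The 3 that rose were Cyp4a14 (3.49, SE 0.96, adjusted p = 0.0109 from limma), Cyp4a10 (1.89, SE 0.5, adjusted p = 0.00839 from limma) and Ppargc1a (0.71, SE 0.26, adjusted p = 0.047 from limma). The 6 that fell were Acsm1 (-1.63, SE 0.35), Etfb (-1.04, SE 0.33), Cpt2 (-1.0, SE 0.33), Pex11a (-0.86, SE 0.24), the short-chain dehydrogenase gene Acads (-0.73, SE 0.22) and the carnitine acetyltransferase gene Crat (-0.68, SE 0.2). In IKKβΔTub mice 5 members were higher and 5 lower (13.8% and 19.2% of all genes), with medians of 0.23 and -0.04. Here Cyp4a14 (7.35, SE 0.96, adjusted p = 5.67e-05 from limma), Cyp4a10 (4.11, SE 0.5, adjusted p = 2.73e-05 from limma), Ppara (1.8, SE 0.44, adjusted p = 0.00626 from limma), Ppargc1a (1.54, SE 0.26, adjusted p = 0.000539 from limma) and Acsl1 (1.09, SE 0.32, adjusted p = 0.0164 from limma) rose. Those that fell were Acsm3 (-4.29, SE 1.41), Acsm2 (-2.03, SE 0.57), Cpt2 (-0.95, SE 0.33), Acads (-0.71, SE 0.22) and Crat (-0.58, SE 0.2).
The control comparison rests on the doubtful libraries at 2 days. Without replicates 1 and 2 labelled control at 2 days 1 member was called, and the values were 1.73 for Cyp4a14 and 1.6 for Cyp4a10. Without control day 2 replicate 1 alone Cyp4a14 was at 2.54 and lost its call (adjusted p = 0.0611 from limma), and Ppargc1a lost its call without any one of 5 of the 6 libraries (0.57 to 0.74), as did Etfb (-1.08 to -0.76). Cpt2 lost it without 4 of the 6 (-1.02 to -0.86), Acads and Crat without control day 2 replicate 1 or day 14 replicate 3 (-0.60 each for Acads, -0.60 and -0.62 for Crat) and Pex11a without control day 14 replicate 3 (-0.73). In IKKβΔTub mice the calls of Cyp4a14, Cyp4a10, Ppara and Ppargc1a held without any single library of the comparison. Without day 14 replicate 2 the median of the members was -0.08, and Acsl1 was at 0.62 and lost its call, as it did without day 2 replicate 1 (0.99). The falls in IKKβΔTub mice were less firm, since those of Cpt2 (-1.01 to -0.82), Crat (-0.54 to -0.43), Acads (-0.73 to -0.58), Acsm3 (-4.21 to -3.49) and Acsm2 (-1.90) each lost the call without at least 1 library. Cpt2 (-0.88), Crat (-0.51) and Acads (-0.64) also lost it after rescaling by median ratios, as did Ppargc1a in control mice (0.69).

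Other genes of the same metabolism gave a mixed picture. Of 25 further PPAR targets and partners, 24 were tested, and in the 4 comparisons with baseline (control 2 and 14 days, IKKβΔTub 2 and 14 days) 9, 11, 14 and 12 were lower and 2, 2, 0 and 0 higher, with medians of -0.59, -0.58, -0.96 and -1.29. In the tricarboxylic acid cycle, which takes up the acetyl-CoA, 18 genes were tested, of which 12, 17, 11 and 15 were lower and 0 higher, with medians of -0.68, -1.31, -0.52 and -0.89. From 2 to 14 days 14 of the 18 fell in control mice and 8 in IKKβΔTub mice, with 0 higher in either.

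Few differences between strains were called by the test used. No member was called between IKKβΔTub and control mice at baseline, 2 days or 14 days by limma, where 0.049%, 0% and 0.483% of all genes tested were called in either direction. At an unadjusted p under 0.05 there were 4, 1 and 10 members, and 2487, 1065 and 2288 of all 16342 genes. With edgeR on recovered reads 1, 0 and 0 members were called and 79, 0 and 5 of all genes. With DESeq2 1, 0 and 3 members were called and 738, 1 and 501 of all genes. The median log2 fold change over the members was 0.23 at baseline, -0.05 at 2 days and 0.36 at 14 days, and over all genes -0.09, 0.02 and -0.05. Y-linked expression was absent in 3, 2 and 1 control and in 1, 0 and 3 IKKβΔTub libraries at these times, so the makeup by sex differed between strains at each. With Y-linked expression as a covariate the medians of the members were 0.06, -0.19 and 0.53. The comparison at 2 days rests on control replicates 1 and 2 of doubtful genotype, so its lack of calls cannot show that the strains were alike. Without these replicates, which left a single control library, the median of the members at 2 days was 0.03.
At baseline 33 of 45 members and 38.4% of all genes tested were higher in IKKβΔTub mice by sign, but without control baseline replicate 3 the median of the members was -0.01. The largest difference was that of Acsm3, 6.29 (SE 1.41, adjusted p = 0.0962 from limma), with the groups not overlapping, as in 22.1% of all genes. It was 3.33 with Y-linked expression as a covariate and 8.2 and called without IKKβΔTub baseline replicate 1. Cd36 (1.5, SE 0.74) and Ehhadh (0.98, SE 0.61) followed, both without a call. At 2 days the largest differences were those of Cyp4a14 (-2.4, SE 0.96, adjusted p = 0.759 from limma), Cyp4a10 (-0.94, SE 0.5) and Acsm2 (0.62, SE 0.57), and the last was -0.24 with Y-linked expression as a covariate. The day 2 libraries of both labels overlapped for Cyp4a14, where control replicate 1 at 0.410 lay between the IKKβΔTub libraries.

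At 14 days 39 of 45 members were higher in IKKβΔTub mice by sign, all 19 mitochondrial and 9 of 10 peroxisomal genes among them, with medians of 0.36 and 0.3. Over all genes tested 42.4% were higher by sign. In 10 members all IKKβΔTub libraries were above all control libraries, and in 1 below (4.44% and 9.07% of all genes). Cyp4a14 (1.46, SE 0.96, adjusted p = 0.559 from limma), with 16.4 to 18.4 in control and 32.7 to 70.4 in IKKβΔTub libraries, Cyp4a10 (1.29, SE 0.5, adjusted p = 0.24 from limma), with 6.27 to 8.12 and 11.9 to 28.1, and Acox2 (1.39, SE 0.45, adjusted p = 0.16 from limma), with 0.159 to 0.299 and 0.303 to 1.49, were among the 10. Acox2 was called at 1.81 without IKKβΔTub day 14 replicate 3. The member below was Acsm3 (-3.66, SE 1.41, adjusted p = 0.237 from limma). The groups of this time differ in Y-linked expression, a limit on the values of all members. Without IKKβΔTub day 14 replicate 2 the median of the members was 0.09. Summed macrophage markers (12 genes) were 35.8 to 53.8 in control libraries at 14 days. In IKKβΔTub libraries they were at 20.3, 4.23 and 22.2, the lowest in replicate 2. Of 24 proximal tubule markers 23 were higher in IKKβΔTub mice by sign, with a median of 0.72. The part of these markers in the values of the members was not tested.
No member was called in the test of whether the strain difference at 14 days differed from that at baseline or at 2 days (0.116% and 0.0612% of all genes), with medians of 0.21 and 0.38 over the members, and 5 and 7 members had an unadjusted p under 0.05, as had 2794 and 1608 of all genes. The first of these tests called 1 member with edgeR and 2 with DESeq2 (39 and 861 of all genes), and the second 0 with either (2 and 109). The difference for Cyp4a14 was 3.85 (SE 1.35, adjusted p = 0.329 from limma) against 2 days and 1.05 (SE 1.35) against baseline. The latter changed sign with Y-linked expression as a covariate. All values against 2 days rest on control day 2 replicates 1 and 2, whose genotype was in doubt.

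**Figure D4:**
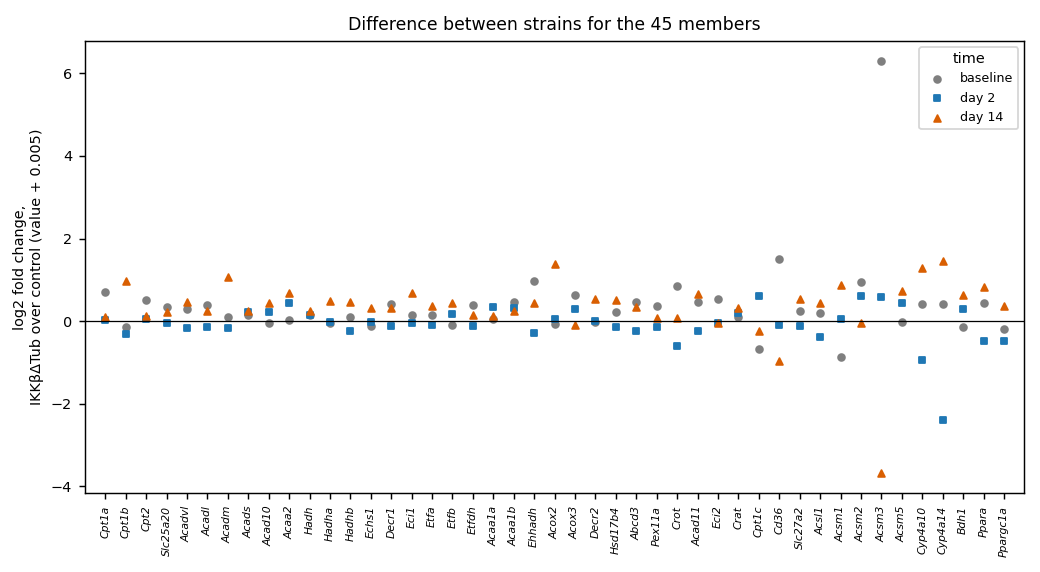
Log2 fold change of IKKβΔTub over control (vertical axis) for each of the 45 members (horizontal axis, grouped by role) at baseline (grey circles), 2 days (blue squares) and 14 days (orange triangles). Most triangles lie slightly above 0, Cyp4a14 lies at -2.40 at 2 days and 1.46 at 14 days, and Acsm3 at 6.29 at baseline and -3.66 at 14 days; none of these differences was called by limma.

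The higher values of IKKβΔTub day 14 replicate 2 were uneven over the members. It was at or above the lowest IKKβΔTub baseline library in 14 of 45 members (31.1%), where replicates 1 and 3 were so in 3 and 4. Over all genes tested the shares were 77.2% for replicate 2, 73.6% for replicate 1 and 75.6% for replicate 3. Relative to the IKKβΔTub baseline mean it held 130% for Acadm, 121% for Acsl1, 96% for Bdh1, 96.6% for Cyp4a14 and 80.2% for Ehhadh. It held 31.7% for Acaa1b, 34.1% for Cpt2, 36.8% for Hadhb, 44.0% for Pex11a and 47.4% for Abcd3. Cell markers set this library apart as well. Its summed proximal tubule markers were at 370, with 93.7 and 112 in replicates 1 and 3 and 350 to 549 in IKKβΔTub libraries at baseline. Its summed macrophage markers were at 4.23, with 20.3 and 22.2 in replicates 1 and 3 and 2.73 to 3.21 at baseline. The part of these markers in its member values was not tested. Control baseline replicate 3 was uneven too, with 0.194 times the mean of the other 2 libraries for Cyp4a14, 0.225 times for Cyp4a10, 0.235 times for Ehhadh and 0.322 times for Eci1, an isomerase of β-oxidation, and 0.968 times for Acox2, 0.983 times for Ppargc1a and 1.78 times for Acsm1.

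The promoters were searched for the hexamer that nuclear receptors such as PPARα with RXR recognise. RefSeq windows of 300 bases on GRCm38.p6 were at hand for 38 of the 45 members, 43 windows in all. None was used for Acaa2, Cpt1b, Crat, Cyp4a10, Cyp4a14, Decr1 and Hsd17b4. The single hexamer AGGTCA, on either strand, was found in 8 members (Acadm, Acadvl, Acsm1, Cd36, Cpt1a, Cpt1c, Echs1 and Slc27a2), in 18.6% of the windows of members and in 16.3% of all 32851 windows. A pair of hexamers 1 base apart, AGGNCANAGGNCA on either strand, which holds the single hexamer where both N are T, was found in 0 member windows and in 0.381% of all windows. Shown are 3 members of different steps that fell in IKKβΔTub mice at 2 days, with the match in capitals, on these strands always as its reverse complement TGACCT: Acadm (chr3:153944594-153944893, minus strand), Slc27a2 (chr2:126552774-126553073, plus strand) and Cpt1a (chr19:3323051-3323350, plus strand).
Acadm: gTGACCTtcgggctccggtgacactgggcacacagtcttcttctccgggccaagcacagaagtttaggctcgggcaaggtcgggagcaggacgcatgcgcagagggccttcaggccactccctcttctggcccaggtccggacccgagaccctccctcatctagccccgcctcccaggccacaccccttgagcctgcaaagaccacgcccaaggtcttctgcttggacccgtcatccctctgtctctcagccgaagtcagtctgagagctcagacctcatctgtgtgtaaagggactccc
Slc27a2: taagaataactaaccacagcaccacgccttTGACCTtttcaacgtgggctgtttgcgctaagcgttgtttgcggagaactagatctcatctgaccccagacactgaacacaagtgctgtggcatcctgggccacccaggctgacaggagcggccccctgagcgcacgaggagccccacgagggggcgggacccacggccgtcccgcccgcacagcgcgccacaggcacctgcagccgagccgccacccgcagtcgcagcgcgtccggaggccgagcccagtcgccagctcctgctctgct
Cpt1a: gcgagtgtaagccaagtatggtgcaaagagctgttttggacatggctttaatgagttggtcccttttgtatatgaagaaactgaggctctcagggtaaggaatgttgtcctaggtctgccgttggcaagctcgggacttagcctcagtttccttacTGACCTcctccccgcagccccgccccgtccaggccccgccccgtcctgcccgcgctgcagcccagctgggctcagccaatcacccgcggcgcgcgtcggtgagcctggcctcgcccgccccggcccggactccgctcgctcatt
The match lay near the upstream end of the Acadm and Slc27a2 windows and closer to the start in the Cpt1a window. Cpt1c, which rose, also held a match. A match is a description of the letters and not a binding site, and no match says only that these letters are not in this window.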

How the data were processed

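Whole-kidney RNA from 18 libraries, 3 in each of 6 groups, was sequenced from stranded poly(A) libraries. The submitters' notes name STAR 2.5.2b, featureCounts 1.5.2 and DESeq2 1.26.0. The deposited signal values were made by the authors as reads per gene divided by the 90th percentile of gene reads of the library, and 100% of them were whole reads within 0.001 read. Genes at 0.005 or more in at least 3 libraries were tested with limma 3.58.1 (R 4.3.3) on log2(value + 0.005), with 6 group means and all 18 libraries, two-sided, with Benjamini-Hochberg adjustment over 16342 genes and a threshold of 0.05. The scale understates changes of low genes. edgeR 4.0.16 and DESeq2 1.42.0 were run on the recovered reads, and the code was tested on simulated data. Other alternatives concerned the pseudocount, the filter, the scaling, the libraries used, Y-linked expression and a replicate block. Leaving out control baseline replicate 3 together with IKKβΔTub day 14 replicate 2 was chosen after seeing the data. The members and lists were chosen with earlier results of these data known. All 45 members may be named, and values per library were given for the regulators, carnitine transferases, ω-oxidation genes, medium-chain synthetases and main enzymes, for members called against the main direction and for the 3 largest changes of a comparison. Labels do not say that libraries are independent cohorts, so p-values measure the spread between these libraries. Coordinates are from GENCODE M21 on GRCm38.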

Additional observations from a re-analysis of the deposited data

Results flagged for a closer look

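Acsm3 changed by 2.82 from baseline to 14 days in control mice and by -7.14 in IKKβΔTub mice on the log2 scale, without overlap between the 2 times in either strain, a difference of -9.95. The same -9.95 is the strain difference at 14 days minus that at baseline, where the strains did not overlap at either time and stood in opposite order. Its adjusted p was 0.067 from limma, 0.038 from edgeR and 1.9e-09 from DESeq2. Y-linked expression differed between these groups and cannot be told apart from strain and time. Among all genes tested the strains did not overlap in 22.1% at baseline. At 14 days all IKKβΔTub libraries were below all control libraries in 9.07%.

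Acadvl, the very-long-chain acyl-CoA dehydrogenase gene, and Hadhb stood in opposite order between the strains at 2 days and at 14 days, without overlap at either time. At 14 days all IKKβΔTub libraries were above all control libraries in 4.44% of all genes tested, and the share at 2 days is not given here. All strain differences at 2 days rest on control replicates 1 and 2, whose genotype was in doubt. The strain difference at 14 days minus that at 2 days was 0.62 for Acadvl (adjusted p = 0.61 from limma) and 0.69 for Hadhb (adjusted p = 0.43 from limma). Cpt1c was lower in IKKβΔTub mice at baseline and higher at 2 days, again without overlap, and the strain differences were 1.27 apart, a difference that was not tested.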

How the results depend on the processing

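Without control day 2 replicates 1 and 2, 16 members were called at 2 days in control mice and 1 between 2 and 14 days. Among libraries without Y-linked expression each of the next comparisons had a single library in 1 of its groups. The medians of the members were -1.45 in control and -0.98 in IKKβΔTub mice at 14 days and -0.40 between 2 and 14 days in control mice. With Y-linked expression as a covariate 22 members were called in IKKβΔTub mice at 14 days and 14 between 2 and 14 days in control mice. In these 2 settings the peroxisomal minus mitochondrial median between strains at baseline was -0.0068 and 0.032, and Ppara in control mice at 14 days was 0.24 in the former. With the covariate Acsm2 between strains at 2 days was -0.24, the median of the members in the strain difference at 14 days minus that at baseline 0.54 and minus that at 2 days 0.71, and Cyp4a14 in the former -0.78. With edgeR the median was -1.54 in control mice at 14 days and -1.61 in IKKβΔTub mice at 2 days (-1.61 with DESeq2). edgeR and DESeq2 called 1 and 1 member between strains at baseline and 1 and 2 in the strain difference at 14 days minus that at baseline, and DESeq2 called 3 between strains at 14 days and 18 between 2 and 14 days in IKKβΔTub mice. Ppara in IKKβΔTub mice at 14 days was -0.23 after rescaling, -0.17 with edgeR, -0.16 with DESeq2 and -0.25 without control baseline replicate 3 and IKKβΔTub day 14 replicate 2. That last setting called 38 members at 2 days in control mice, and 16 and 15 between 2 and 14 days in control and IKKβΔTub mice, with a peroxisomal minus mitochondrial median of -0.0010 in the strain difference at 14 days minus that at 2 days. Leaving out 1 library at a time gave 18 to 36 calls at 2 days in control mice, 4 to 12 between 2 and 14 days in either strain, 0 to 1 between strains at baseline, 0 to 2 at 14 days and 0 to 2 in the strain difference at 14 days minus that at baseline. The peroxisomal minus mitochondrial median ranged from -0.56 to -0.25 in that difference and from -0.0010 to 0.29 in that against 2 days, Ppara in IKKβΔTub mice at 14 days from -0.25 to 0.40 and Ppargc1a from -0.41 to 0.065. The cause of these shifts was not tested.

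Replicate numbers did not pair the libraries, since of 45 same-numbered pairs the correlation of deviations ran from -0.35 to 0.44 and passed 0.1 in 9. With a replicate block 27, 32, 39 and 33 members were called in the 4 comparisons with baseline, 10 and 14 between 2 and 14 days and 0 between strains. For 126 chosen pairs of gene and comparison under all other settings, 2136 outcomes kept direction and side of the threshold, 220 lost the call, 39 gained it and 12 changed sign. Outcomes without an adjusted p were counted as kept where the sign held. Settings on Y-linked expression that left no IKKβΔTub library at 2 days were not run, nor were those on libraries compared or doubtful labels for differences between strain differences. Depth limits Cpt1b, with at most 33 reads in a library.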
